A study of Mus musculus with 10 samples.

Results

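The baseline transcriptome of the heart was described in the 5 control hearts of a study of 10 hearts. Members were chosen by genotype alone, as the hearts whose label carries no Cre, and no comparison between genotypes was made. The study is an RNA sequencing experiment on hearts of male mice described as plasma S1Pless and of littermate controls. The kinases Sphk1 and Sphk2 make S1P, sphingosine 1-phosphate, a signalling lipid of blood and tissues. The controls were male, of genotype Sphk1f/-:Sphk2f/-:Mx1Cre-, so each carried a floxed and a null allele of both kinase genes and no Mx1-Cre, the interferon-inducible recombinase of the other group. They are therefore a baseline for this cross and not for wild-type mice. The sources used here do not give age, strain background, any inducing agent, the time of day or the part of the heart that was taken. The controls are described as littermates, but the labels do not say which animals shared a litter. Each sample title carries a number, and that of heart 5 lies far above the rest. Whether these numbers follow litter, birth date or cohort is not given. The part of litter or cohort in the differences between hearts was not tested. The hearts are numbered 1 to 5 here only to name them.

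The adult heart is a muscle that contracts without rest, and its myocytes are filled with sarcomeres, the contractile units in which myosin pulls on actin, and with mitochondria that supply the ATP. Calcium released from the sarcoplasmic reticulum switches each contraction on, and its return into that store by the SERCA pump ends it. Fatty acids are the main fuel, oxidised by mitochondria whose respiratory chain has subunits from both the nuclear and the mitochondrial genome.

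The 5 libraries held 17204491 to 20202283 counts over 15341 genes. Levels are in CPM, counts per 1000000 counts of a library, with its total scaled by a TMM factor of 0.929 to 1.05, and 1 count was worth 0.0508 to 0.0626 CPM. Values per gene are given for hearts 1 to 5 in that order, or as mean ± SD (n = 5). A mean of at least 1 CPM was reached by 12165 genes (79.3%), of at least 100 CPM by 1229 and of at least 1000 CPM by 76. The Y-linked genes Ddx3y (76.8 to 110.1 CPM) and Eif2s3y (64.9 to 77.2 CPM) were present in all 5 hearts, which are labelled male, as were Uty (24.6 to 32.9 CPM) and Kdm5d (19.9 to 23.1 CPM). No pair of libraries was alike within counting noise, since chi-square divided by its degrees of freedom was at least 10.1 in each of the 10 pairs.

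Counts were concentrated in few genes. The 12 mitochondrially encoded genes in the table took 33.4%, 23.7%, 27.1%, 24.8% and 25.3% of the counts in hearts 1 to 5, a mean of 26.9 ± 3.85%. Heart 1 was the highest, and the other 4 lay within a range of a few percentage points. The number of genes that made up 50% of all counts was 62, 171, 108, 158 and 158, and without mitochondrially encoded genes 516, 544, 478, 550 and 555. The 20 nuclear genes with the most counts took 12.3 ± 0.519% of the counts, and 9 of them encode sarcomere proteins.

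**Figure D1:**
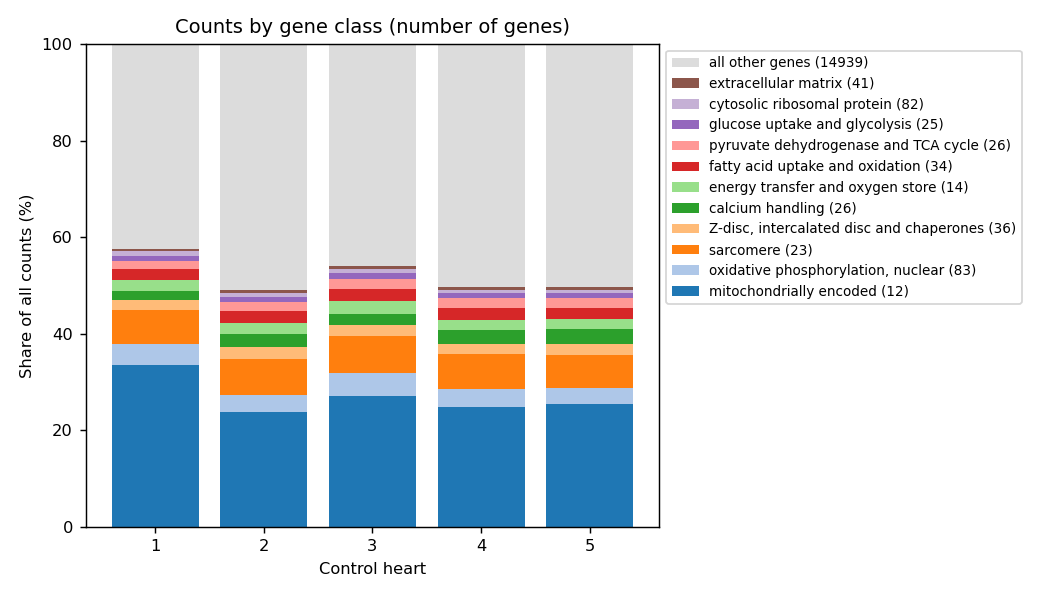
Share of all counts (%) by gene class in each of the 5 control hearts, as stacked bars, with the number of genes of each class in the legend. Mitochondrially encoded genes form the largest class in every heart and are highest in heart 1, at 33.4%, and genes outside the classes take 42.4% to 51.0%.

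Among mitochondrially encoded genes, 6 carried nearly all the counts. Subunit I of cytochrome c oxidase, mt-Co1, took the most counts of any gene, at 92789, 60327, 75881, 65722 and 67716 CPM. Cytochrome b of complex III, mt-Cytb, followed at 85323, 48902, 65174, 53351 and 53191 CPM. Both were highest in heart 1, followed by heart 3. The complex I subunits mt-Nd1, mt-Nd2, mt-Nd5 and mt-Nd4 had 43203 ± 9237 CPM, 33851 ± 7422 CPM, 30728 ± 4134 CPM and 28669.9 ± 6714 CPM. The complex I subunit mt-Nd6, which is encoded on the other strand of the mitochondrial genome, had 657, 326, 332, 246 and 229 CPM, again highest in heart 1. The remaining members were close to 0: mt-Nd3 (4.84 to 8.26 CPM), mt-Co2 (0.157 to 5.54 CPM), mt-Nd4l (0.305 to 1.25 CPM), mt-Atp6 (0.0532 to 0.209 CPM) and mt-Co3 (0 to 0.152 CPM). Since mt-Co1, mt-Co2 and mt-Co3 are subunits of 1 enzyme, these values show how unevenly the deposited counts cover the mitochondrial genome, and the share above rests on these 6 genes. How reads that map to several places or to overlapping genes were counted is not given in the sources used here.

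Sarcomere genes were the largest nuclear class. The 23 members in the table took 7.15%, 7.42%, 7.75%, 7.15% and 6.69% of the counts, and 21 of them reached 1 CPM. Myh6 (ENSMUSG00000040752), the fast alpha myosin heavy chain of the adult mouse heart, took the most counts of any nuclear gene, at 16226, 20426, 18801, 19986 and 17669.8 CPM, values that are not scaled to its length. The 5 hearts were close to each other, with a coefficient of variation (CV, SD over mean) of 9.22%. Next in the class by counts came Tnnt2 (cardiac troponin T, 8288 ± 1464 CPM), Myl2 (ventricular regulatory light chain, 7791 ± 2189.6 CPM), Tpm1 (tropomyosin, 7198 ± 1322 CPM) and Actc1 (cardiac actin, 7195 ± 869 CPM). Ttn, the giant spring protein titin, had 3682, 4018, 3695, 5274 and 5488 CPM with hearts 1 and 3 lowest and heart 5 highest. Myl3 (essential light chain, 4373 ± 882 CPM), Tnni3 (cardiac troponin I, 3786 ± 1079.9 CPM) and Mybpc3 (myosin-binding protein C, 3416 ± 478 CPM) completed the sarcomere genes among the 20 nuclear genes with the most counts.

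A long transcript yields more fragments than a short one at equal molecule number, so the order by counts is not an order of molecules, and levels of different genes were compared per kb of merged exon. On that scale Mb, the oxygen-storing myoglobin, led the nuclear genes at 7031 ± 754 CPM per kb, followed by Actc1 (4447 ± 537 CPM per kb), Myl2 (3995 ± 1123 CPM per kb), Myh6 (2769 ± 255 CPM per kb) and Pln (2189 ± 128 CPM per kb). The ranges of mean ± SD of Mb and Actc1 did not overlap, nor did those of Myh6 and Pln, whereas those of Actc1 and Myl2 and of Myl2 and Myh6 did. Such ranges leave out that the genes were measured in the same hearts. Within each heart Myl2 was above Myh6 per kb, whereas the order of Actc1 and Myl2 differed between hearts. Myl3 (2139.5 ± 432 CPM per kb) and Slc25a4 (2064 ± 404 CPM per kb) did not differ from Pln beyond their spread. Ttn, within the 20 highest by CPM, had 37.9 ± 7.54 CPM per kb. Tnnc1, the calcium-binding troponin C, had 1876 ± 475 CPM per kb, close to Atp2a2 (1866 ± 393 CPM per kb) and Tnni3 (1835 ± 523 CPM per kb). Further members of the 20 highest per length were Cox6a2, Ckmt2, Fabp3, Atp5a1, Tcap, Atp5b, Tpm1, Tnnt2, Cryab and Cox7a1. Tcap (1220.2 ± 408 CPM per kb) caps titin at the Z-disc, and Cryab (1063 ± 138 CPM per kb) is a small heat shock protein that guards filament proteins. The 2 rankings shared 14 of 20 genes. Merged exons join the exons of all annotated transcripts of a gene, so they can exceed the length of its main transcript and place the gene too low. With the longest transcript as the length, 17 of the 20 highest per length were shared.

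Actc1 and Acta1, the cardiac and the skeletal sarcomeric actin, are shown with the bases before their start sites, because their promoters both hold a CArG box, the element that serum response factor is known to bind. The sequences are from RefSeq on GRCm38.p6, 5′ to 3′ on the gene's strand, with the CArG match in capitals. Actc1 lies on the minus strand at chr2:114052876-114053025, and its match begins at position -47 from the start. Acta1 lies on the minus strand at chr8:123894776-123894925, and its match begins at position -73.
Actc1: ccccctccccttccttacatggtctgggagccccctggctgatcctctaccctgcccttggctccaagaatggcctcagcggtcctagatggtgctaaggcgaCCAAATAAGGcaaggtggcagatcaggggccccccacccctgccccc
Acta1: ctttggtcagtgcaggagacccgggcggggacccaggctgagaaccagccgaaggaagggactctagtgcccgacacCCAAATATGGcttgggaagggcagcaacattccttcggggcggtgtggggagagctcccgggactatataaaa
A CArG match on either strand within 250 bases before the start was found in 5 of 22 sarcomere genes with a promoter sequence (Acta1, Actc1, Myl3, Myl7 and Myom1) and in 439 of 27025 genes in all (1.62%). The match says nothing of level: Actc1 was among the highest genes of the heart while Myl7, the atrial light chain, was nearly absent.

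Z-disc, intercalated disc and chaperone genes took 1.898%, 2.42%, 2.299%, 2.23% and 2.41% of the counts, and all 36 members in the table reached 1 CPM. The small heat shock protein Hspb7 was at 2252 ± 354 CPM, Des (desmin, the muscle intermediate filament) at 1886 ± 186 CPM, Actn2 (alpha-actinin of the Z-disc) at 1765 ± 126 CPM and Fhl2 at 1629.6 ± 219 CPM. Dsp, the desmosomal plaque protein desmoplakin, had 800.5, 1386, 995, 1581 and 1545 CPM. Flnc, an actin cross-linker of the Z-disc, was among the 2 most variable members at 195, 522, 275, 328 and 402 CPM. Both were lowest in hearts 1 and 3.

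Nuclear subunits of oxidative phosphorylation took 4.44%, 3.65%, 4.69%, 3.77% and 3.51% of the counts over 83 genes, of which 82 reached 1 CPM. Hearts 1 and 3 were above the other 3. By complex, ATP synthase took 1.53 ± 0.166%, complex I 1.01 ± 0.149%, complex IV with cytochrome c 0.672 ± 0.135%, complex III 0.504 ± 0.0673% and complex II 0.296 ± 0.0149%. The ATP synthase subunits Atp5b (5003 ± 665 CPM) and Atp5a1 (3961 ± 285 CPM) took the most counts of the class. The core protein Uqcrc1 of complex III had 1051 ± 170.2 CPM and the flavoprotein Sdha of complex II 1427 ± 75.5 CPM. Sdha varied little, with a CV of 5.29%, against a median of 23.4% over the class and 13.6% over all genes.

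Fuel and energy transfer genes took shares of the same order. Fatty acid uptake and oxidation took 2.23%, 2.37%, 2.53%, 2.41% and 2.28% of the counts. Lpl, the lipase that frees fatty acids from lipoproteins, had 6977, 6808, 7898, 7236 and 7067 CPM, and the fatty acid transporter Cd36 had 2061, 2176, 1967, 1976 and 2215 CPM. Both differed little between hearts, with CVs of 5.85% and 5.44%. Beta-oxidation was represented by Hadha (1387 ± 122 CPM), Acadm (1049 ± 61.7 CPM) and Acadl (1015 ± 118 CPM), and Etfdh, which passes their electrons to the respiratory chain, had the smallest spread of those named (617 ± 21.1 CPM, CV 3.43%). The pyruvate dehydrogenase and TCA cycle genes took 1.93 ± 0.109%, with Ogdh (2163 ± 370.3 CPM), Idh2 (1963 ± 308 CPM) and Mdh1 (1922 ± 259 CPM) among its members. Glucose uptake and glycolysis took 1.12 ± 0.0693%, with Aldoa (2351 ± 320.5 CPM), the glycogen phosphorylase Pygm (1186 ± 119 CPM) and Eno3 (1154 ± 199 CPM) among its members. The genes of ketone and branched-chain amino acid use took 0.416 ± 0.0415%, with Oxct1, the enzyme that activates ketone bodies, at 1286 ± 118 CPM. Myoglobin, creatine kinases, adenylate kinases and the carriers of the inner and outer mitochondrial membranes together took 2.32 ± 0.212%, with Mb at 10682, 9446, 12343, 9962 and 10020.3 CPM. The ADP/ATP carrier Slc25a4 had 4856 ± 952 CPM, and the creatine kinases Ckmt2 of mitochondria and Ckm of the cytosol had 2289 ± 429 CPM and 1981 ± 293 CPM.

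Calcium handling genes took 1.97%, 2.81%, 2.23%, 2.71% and 3.000% of the counts, and 23 of 26 members reached 1 CPM. The calcium pump of the sarcoplasmic reticulum, Atp2a2 (SERCA2), had 8270.3, 13109.6, 9329, 12421 and 13603 CPM. Hearts 2, 4 and 5 were above hearts 1 and 3, and heart 1 was lowest. Its inhibitor Pln (phospholamban) had 5956, 5725, 6104, 5797 and 6616 CPM, a CV of 5.86%. The ratio of pump to inhibitor therefore differed between hearts, with the larger spread in Atp2a2. Atp2a2 has 6.081 kb of exon and Pln 2.759 kb. Levels also moved with gene length between hearts, as described below, and the part of length in this ratio was not tested. The release channel Ryr2 had 1131, 1588, 1284, 1958 and 2448 CPM, again lowest in heart 1 and highest in heart 5. The calcium-binding proteins Hrc (1131 ± 69.5 CPM) and Casq2 (830.4 ± 88.8 CPM) were nearer to Pln in spread, with CVs of 6.14% and 10.7%. The exchanger Slc8a1 had 431 ± 70.2 CPM, a CV of 16.3%.

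Among ion channels and connexins all 27 members reached 1 CPM. Gja1, the main gap junction protein of ventricular muscle, had 440.1 ± 47.8 CPM. Heart 5 was highest in 14 of the 27 members and heart 1 lowest in 12. Over all genes with at least 1 CPM heart 5 was highest in 20.6% and heart 1 lowest in 27.9%. Of the pacemaker channel genes, Hcn4 had 10.4 to 15.8 CPM and Hcn2 had 12.1 to 36.5 CPM.

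Pairs of related genes, in most of which 1 is the form of adult heart or striated muscle, were compared per kb within each heart. The ratio of Myh6 to Myh7, the slow beta myosin of the fetal rodent heart, was 169, 44.7, 90.7, 119 and 183. It was lowest in heart 2, where Myh7 was highest at 123, 585, 266, 215 and 123 CPM. Acta1 had 68.7, 224, 159, 411 and 275 CPM, highest in heart 4 and lowest in heart 1.

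The metabolic pairs were far more even, given here as the lowest, median and highest heart. The heart and muscle form Cox6a2 of cytochrome c oxidase exceeded Cox6a1 by ratios of 21.03, 22.8 and 23.1, Cox7a1 exceeded Cox7a2 by 3.29, 3.45 and 4.15, and Cox8b exceeded Cox8a by 7.08, 7.47 and 8.75. Cox4i1 exceeded its hypoxia-linked partner Cox4i2 by 47.9, 63.1 and 74.4. For the ADP/ATP carriers Slc25a4 over Slc25a5 was 19.9, 23.5 and 26.9. The insulin-responsive glucose transporter Slc2a4 over Slc2a1 was 16.6, 19.8 and 20.5, and the muscle enolase Eno3 over Eno1 was 54.1, 71.4 and 76.6. The lactate dehydrogenase of heart, Ldhb, over Ldha was 4.88, 5.68 and 5.998. Cytosolic creatine kinase Ckm over the brain form Ckb was 58.9, 66.01 and 90.3, and the fatty acid binding protein of muscle Fabp3 over Fabp4, that of capillaries and fat, was 8.64, 10.4 and 11.1. In all of these the form named first was the higher in each of the 5 hearts. How reads that map to several places were counted is not given, so a ratio is uncertain where a gene has near-identical copies. For 3 pairs the partner was too low for a ratio: Tnni1, the fetal troponin I, had 0.102 to 0.460 CPM, Atp2a1, the pump of fast skeletal muscle, 0.372 to 0.864 CPM, and Myl7 0 to 0.106 CPM. Of carnitine palmitoyltransferase 1, the gate of fatty acid entry into mitochondria, the liver form Cpt1a had 49.8 ± 7.83 CPM, and the muscle form Cpt1b was not analysed here, so the level of the pair's main muscle form is not known from these values.

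The markers fit the label heart, with ventricular myosin light chains abundant and the atrial form nearly absent. Myl2, the ventricular light chain, had 10649.9, 6661, 9569, 6491 and 5583 CPM, whereas its atrial counterpart Myl7 had counts of 1, 1, 0, 0 and 2 and Sln, the atrial regulator of the calcium pump, counts of 0, 0, 0, 0 and 3. Myl4, the atrial essential light chain, had 2.401 to 2.94 CPM. Other genes of the atrial list were at substantial levels, such as Pam (642 ± 146 CPM), a peptide-processing enzyme, and the potassium channel subunits Kcnj3 (104 ± 14.6 CPM) and Kcnj5 (79.4 ± 11.8 CPM). The ventricular factors Irx4 (34.97 ± 5.23 CPM) and Hey2 (7.15 ± 0.808 CPM) were detected in all hearts. Of 14 skeletal muscle genes Myh4 and Myf6 were at 0 in every heart and 5 reached a mean of 1 CPM. These were Acta1, described above, Mybpc2 (12.8 ± 2.91 CPM), Mylpf (1.13 ± 0.349 CPM), Tnni2 (1.08 ± 0.472 CPM) and Tnnt3 (1.03 ± 0.217 CPM), and the summed list ranged from 82.7 CPM in heart 1 to 430.4 CPM in heart 4, most of it Acta1. Of 10 lung markers 4 were analysed here: Sftpc and Foxj1 were at 0 in every heart, Ager was at 0.319 to 0.688 CPM, and Hopx, which heart muscle is also known to express, had 241 ± 45.1 CPM. Of 9 liver markers 2 were analysed here: Alb was at 0 in every heart and Apoa2 at 0.256 to 0.864 CPM. Adipoq of fat was at 0 to 0.358 CPM. A count of 0 allows up to 3 counts, or 0.152 to 0.188 CPM, in a library, for counting error only.

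In a bulk sample fewer cells of a type and less RNA per cell cannot be told apart, and the following levels are those of the whole tissue. The median level of the 16 cardiomyocyte markers was 1473 CPM per kb. Capillary endothelial markers had a median of 28.4, pan-endothelial markers 16.9, pericyte markers 14.2, fibroblast markers 13.1 and smooth muscle markers 11.7 CPM per kb. The capillary list includes Cd36 and Fabp4, which heart muscle or fat cells also express, and the smooth muscle list includes Pln and Des, which heart muscle shares. Macrophage markers had a median of 5.21, arterial 4.39, lymphatic 4.32 and endocardial markers 3.11 CPM per kb. Below 1 CPM per kb were the lists of autonomic neurons, platelets, mast cells, glia, monocytes, B cells, the conduction system, dendritic cells, neutrophils, T cells, NK cells, epicardium and white fat.

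**Figure D2:**
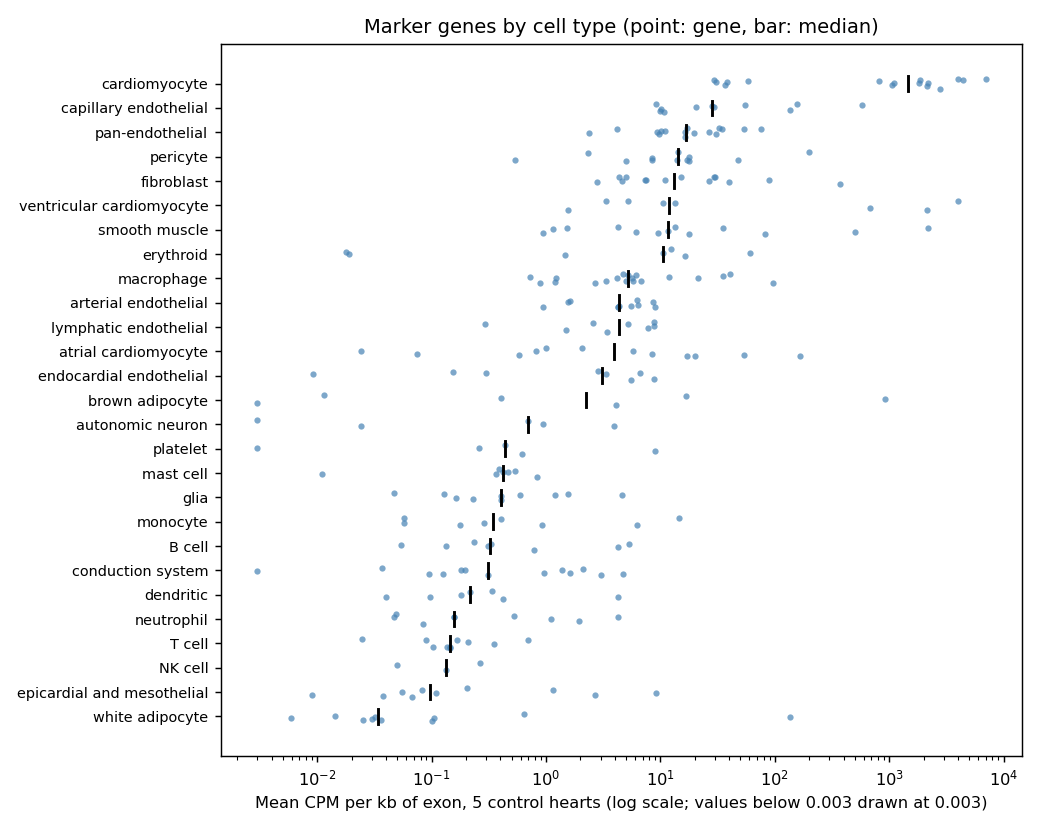
Mean level of each marker gene over the 5 control hearts, in CPM per kb of exon on a log scale, by cell type, with the median of each list as a bar. Cardiomyocyte markers have a median of 1473 CPM per kb, and all vascular and fibroblast lists lie far below it.

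As a share of all counts, the summed pan-endothelial markers were nearly the same in each heart. These 16 genes took 0.207%, 0.207%, 0.209%, 0.208% and 0.202% of the counts. Their summed level was less even, at 2224, 1964, 2151, 2020 and 1978 CPM, and highest in heart 1. Cdh5, the cadherin of endothelial junctions, had 329, 271, 333, 333 and 315 CPM, and the VEGF receptor Kdr had 278, 299, 305, 266 and 248 CPM. Pecam1 (214 ± 18.1 CPM), Flt1 (233 ± 21.1 CPM) and Tie1 (159 ± 9.06 CPM) were also of small spread, and the median CV of the list was 10.5%. Members of the lists for kinds of endothelium varied more, with median CVs of 23.03% for capillary, 15.8% for arterial, 37.98% for endocardial and 22.1% for lymphatic markers. The median over all genes was 13.6%. The summed shares of these lists had CVs of 3.55%, 4.10%, 20.4% and 17.8% in that order, against 1.46% for the pan-endothelial list. The endocardial markers took 0.0108%, 0.0162%, 0.0101%, 0.0153% and 0.0140% of the counts, lowest in hearts 1 and 3. Pericyte markers took 0.156 to 0.179%, with Rgs5, a G protein regulator, at 898 ± 102 CPM and the growth factor receptor Pdgfrb at 93.3 ± 5.37 CPM. Fibroblast markers took 0.202 to 0.278%, with Gsn (gelsolin) at 1182 ± 248 CPM, the matrix proteoglycan Dcn at 522 ± 86.7 CPM, and the collagens Col3a1 at 149 ± 24.96 CPM and Col1a1 at 72.02 ± 12.5 CPM. The receptor Pdgfra, which marks cardiac fibroblasts more narrowly, had 53.01, 38.6, 45.3, 55.1 and 38.7 CPM. Smooth muscle was read from Myh11 (72.4 ± 11.4 CPM) and Acta2 (105, 72.98, 75.9, 50.6 and 81.5 CPM), of which Acta2, the smooth muscle actin, was lowest in heart 4.

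Resident macrophage genes were present in every heart. The 19 markers took 0.0425 to 0.0493% of the counts, and all reached 1 CPM. Their median CV was 16.9%, and heart 1 or 3 was highest in 16 of them, or 12 by library totals, against 45.8% and 31.8% of all genes. Lyz2 (lysozyme) had 127 ± 13.3 CPM, C1qa of complement 42.6 ± 7.12 CPM, the growth factor receptor Csf1r 39.4 ± 3.55 CPM, Mrc1 31.9 ± 3.04 CPM and Cd163 22.7 ± 4.87 CPM. Ccr2, the chemokine receptor of recruited monocytes, had 8.700, 7.62, 4.37, 3.81 and 6.86 CPM. Of 11 T cell markers 10 were analysed here and of 8 NK cell markers only 3, and none of these reached a mean of 1 CPM. The B cell list reached it in 3 of 8 members, all immunoglobulin genes: Ighm (10.01 ± 0.739 CPM), Igkc (2.29 ± 1.02 CPM) and Ighd (1.49 ± 0.386 CPM). Cd8a of T cells was uneven, with counts of 33, 4, 1, 3 and 3. Heart 1 was also highest in Igha, the heavy chain of IgA, at 4.32, 0.256, 0.610, 1.67 and 0.957 CPM. Glial markers included Scn7a (33.6 ± 5.71 CPM), and Dbh, the enzyme of noradrenaline synthesis, had 2.55 ± 0.824 CPM with Th at 0 in every heart. The dividing-cell genes Mki67 (2.74 ± 0.925 CPM) and Top2a (1.49 ± 0.504 CPM) were just above 1 CPM.

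Both kinase genes of the cross were detected in every heart. Sphk1 had 1.69, 1.23, 0.813, 0.939 and 1.12 CPM and Sphk2 17.4, 22.4, 20.3, 19.05 and 17.2 CPM, with 1 null allele of each in every animal. Over the 15 genes of S1P metabolism, transport and reception, the receptor S1pr1 had 100.3 ± 28.6 CPM and 32.9 ± 9.38 CPM per kb, and the lipid phosphatases Plpp3 and Plpp1 had 99.2 ± 3.38 CPM and 56.3 ± 4.21 CPM, or 31.4 ± 1.07 CPM per kb and 32.2 ± 2.404 CPM per kb. Per kb these 3 had the highest levels of the list and did not differ beyond their spread. Plpp3 varied little, with a CV of 3.41%, and S1pr1 more, with 28.5%.

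The spread among hearts was then measured for the 12165 genes that averaged 1 CPM or more. The median CV was 13.6%, and the median of the CV that counting alone would give was 5.09%. Counting was subtracted in squares gene by gene, and the median of the CVs left was 11.7%. A CV below 10% was found for 3492 genes (28.7%), over 50% for 128 (1.05%) and over 100% for 10. Among genes of at least 10 CPM the 10 smallest CVs were those of Cnep1r1, Tpp1, Uap1, Sptlc1, Clns1a, Cnot8, Pelp1, Adck1, Hdac9 and Fam114a2. Cnep1r1, a regulator of lipid synthesis at the nuclear envelope, had 39.9, 39.2, 39.4, 39.6 and 40.4 CPM, and the lysosomal protease Tpp1 had 65.1, 65.98, 64.3, 66.7 and 65.7 CPM. Sptlc1, a subunit of the first enzyme of sphingolipid synthesis, had 20.1, 19.6, 19.6, 20.3 and 19.8 CPM. These spreads were at or below that of counting, so these genes cannot be ranked. Gapdh, often used as a reference, had 209, 231, 358, 216 and 261 CPM with a CV of 23.9%; it has many near-identical pseudogenes, so its count is uncertain.

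**Figure D3:**
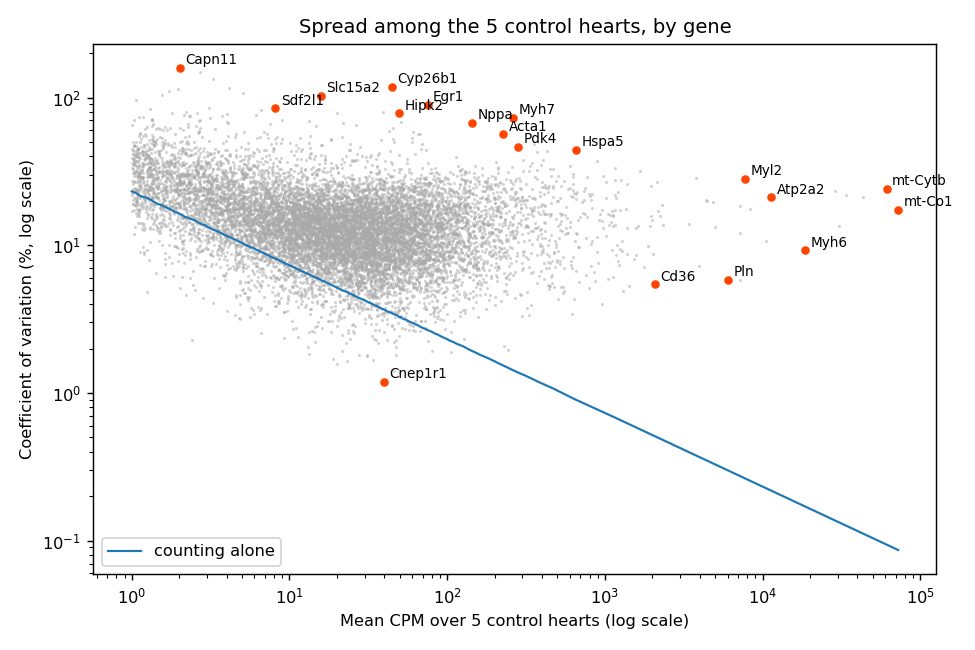
Coefficient of variation (%) of each gene among the 5 control hearts against its mean CPM, both on log scales, with the spread that counting alone gives as a line and some genes of the text marked. The abundant genes Pln and Cd36 lie low, and Capn11, Cyp26b1, Slc15a2, Egr1, Nppa and Myh7 lie high.

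Pairs of hearts differed in how many genes lay over 1.5-fold apart. The share was 2.61% between hearts 4 and 5, 3.76% between 2 and 4, 3.88% between 1 and 3 and 4.01% between 2 and 5. The largest shares were those of heart 1 with heart 5 (11.99%) and with heart 2 (11.02%). Hearts 2, 4 and 5 were thus alike, and heart 1 was nearest to heart 3. A gene was counted as particular to 1 heart where that heart lay over 1.5-fold above or below all 4 others, which held for 624 genes (5.13%). Heart 1 was above in 105 and below in 113, heart 2 in 52 and 77, heart 3 in 22 and 45, heart 4 in 27 and 62, and heart 5 in 38 and 83.

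Gene length moved with this pattern. In the 1216 nuclear genes of shortest exon length, up to 1.886 kb, the median log2 ratio to the mean of the 5 hearts was 0.14, -0.12, 0.21, -0.15 and -0.18. In the longest, over 10.167 kb, it was -0.05, -0.02, -0.16, 0.08 and 0.12. Hearts 1 and 3 were thus high in short genes and low in long ones, and hearts 4 and 5 the reverse. The part of length in the differences between hearts given below was not tested.

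**Figure D4:**
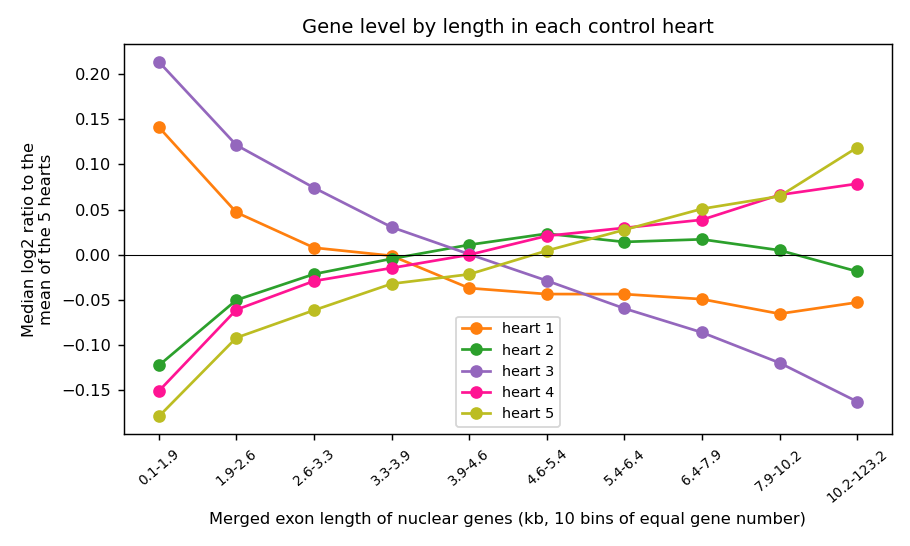
Median log2 ratio of a gene's level to the mean of the 5 hearts, in 10 bins of nuclear genes by merged exon length (kb), 1 line per control heart. In the shortest bin heart 3 lies at 0.21 and heart 5 at -0.18, and their order is reversed in the longest bin.

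The classes of short genes followed the same order. In nuclear oxidative phosphorylation, of median exon length 1.57 kb, heart 1 or 3 was highest in 80 of 82 genes. In cytosolic ribosomal protein genes, of 1.77 kb, it was 81 of 81, or 79 when scaled by library totals. Over all genes the share was 45.8%, or 31.8% by library totals. Cox6c, a small subunit of complex IV, had 585, 297, 491, 315 and 277 CPM, and Ndufa1 of complex I had 167, 88.01, 156, 93.7 and 82.5 CPM. Rpl34, a ribosomal protein gene, had 19.8, 16.05, 41.9, 16.2 and 13.9 CPM and stood out in heart 3. Ribosomal protein genes have many near-identical pseudogenes, so single values of these genes are uncertain. Among long genes Hipk2, a nuclear kinase, had 10.9, 59.5, 14.1, 59.1 and 105 CPM, lowest in hearts 1 and 3 and highest in heart 5. So were Ttn and Ryr2, in the values given above.

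Heart 2 stood out in protein folding genes of the endoplasmic reticulum. This list of 24 genes was drawn up after the values were seen. Its summed level was 2811, 4535, 2878, 2328 and 2788 CPM. Heart 2 was highest in 19 members, or 22 when scaled by library totals, against 18.3% and 28.2% of all genes. Hspa5 (ENSMUSG00000026864), the master chaperone BiP, had 563, 1164, 582, 405 and 582 CPM. Its partner Hsp90b1 had 404, 752, 360.3, 274 and 357 CPM, and the lectin chaperone Calr had 331, 440.0, 323, 220.3 and 268 CPM. Heart 2 was the highest in each, and heart 4 the lowest in Hspa5. The stress-secreted factor Manf had 30.9, 94.4, 43.6, 21.8 and 37.8 CPM, the disulfide isomerase Pdia4 had 29.1, 88.5, 35.1, 27.8 and 34.6 CPM, and Sdf2l1 had 5.07, 20.3, 6.05, 2.97 and 6.38 CPM. Hyou1 (40.1, 113, 45.5, 46.2 and 56.5 CPM) and Creld2 (13.7, 27.3, 16.01, 13.5 and 12.98 CPM) were also highest in heart 2. Other members varied little, among them Tmed2 (CV 2.67%), Ssr1 (5.16%) and P4hb (6.14%), so the difference was carried by part of the list.

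The promoters of 4 of these genes are shown for the endoplasmic reticulum stress response element, the site that ATF6 is known to bind together with NF-Y. The motif searched was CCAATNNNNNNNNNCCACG on both strands, and matches are in capitals. The sequences are from RefSeq on GRCm38.p6, 5′ to 3′ on the gene's strand, and end at the base before the start. Hspa5 lies on the plus strand at chr2:34771940-34772089, Hsp90b1 on the minus strand at chr10:86705445-86705694, Calr on the minus strand at chr8:84846932-84847181 and Creld2 on the plus strand at chr15:88819496-88819645.
Hspa5: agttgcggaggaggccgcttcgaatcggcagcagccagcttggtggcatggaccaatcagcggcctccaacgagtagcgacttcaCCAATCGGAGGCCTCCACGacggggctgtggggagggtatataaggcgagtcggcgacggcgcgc
Hsp90b1: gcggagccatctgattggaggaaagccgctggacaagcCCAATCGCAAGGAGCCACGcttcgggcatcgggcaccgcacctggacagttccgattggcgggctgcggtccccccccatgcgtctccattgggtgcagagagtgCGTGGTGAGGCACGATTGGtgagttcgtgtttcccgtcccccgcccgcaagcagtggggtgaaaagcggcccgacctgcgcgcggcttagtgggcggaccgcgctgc
Calr: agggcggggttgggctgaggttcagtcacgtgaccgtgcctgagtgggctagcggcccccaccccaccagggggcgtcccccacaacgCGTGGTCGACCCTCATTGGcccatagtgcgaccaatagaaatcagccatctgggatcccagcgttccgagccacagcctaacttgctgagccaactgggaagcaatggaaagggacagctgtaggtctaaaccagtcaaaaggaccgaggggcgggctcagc
Creld2: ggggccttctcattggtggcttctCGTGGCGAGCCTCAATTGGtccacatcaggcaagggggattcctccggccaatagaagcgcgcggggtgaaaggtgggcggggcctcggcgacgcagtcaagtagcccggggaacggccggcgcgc
Within 250 bases before the start the motif was found in 8 of the 20 listed genes with a promoter sequence (Calr, Canx, Creld2, Dnajc3, Hsp90b1, Hspa5, Pdia6 and Syvn1) and in 35 of 27025 genes in all (0.130%). A match did not go with the spread among hearts in every gene, since Canx (336, 408, 327, 320.5 and 343 CPM) and Dnajc3 (61.02, 79.7, 61.4, 63.7 and 66.3 CPM) hold it and were much more even. The promoters shown are all from genes with a match. Sdf2l1, Pdia4, Manf and Hyou1, described above as highest in heart 2, were not among the 8 genes. A gene without a promoter sequence could not be found to match.

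Some cytosolic chaperones were also highest in heart 2. Hsph1 had 34.8, 129.7, 43.5, 53.2 and 73.2 CPM and Hsp90aa1, the inducible HSP90, 36.3, 112, 37.4, 48.01 and 64.5 CPM, with heart 2 the highest and heart 1 the lowest in both. The heat-inducible Hspa1a (0.876, 1.38, 1.27, 1.25 and 1.65 CPM) and Dnajb1 (11.4, 10.2, 15.7, 14.1 and 14.3 CPM) did not stand out there; Hspa1a has a near-identical copy and its count is uncertain. Heart 2 was also highest in Angptl4 (4.76, 16.4, 6.76, 5.32 and 4.47 CPM), a PPAR target that inhibits Lpl, and in the acute-phase gene Serpina3n (20.5, 56.6, 23.6, 11.95 and 19.9 CPM). Csf3r, the G-CSF receptor of neutrophils, had 3.44, 8.84, 2.74, 2.61 and 2.34 CPM and was highest there, as was the summed level of the 9 neutrophil markers (10.9, 18.3, 7.47, 4.38 and 3.298 CPM). S100a8 (2.44, 2.25, 1.07, 0.678 and 0.319 CPM) was highest in heart 1 with TMM factors, but by library totals all 3 neutrophil markers of at least 1 CPM, S100a8 included, were highest in heart 2. Pdk4, the kinase that shuts off pyruvate dehydrogenase in fasting, had 193, 433, 181, 417 and 184 CPM, in 2 groups of values with hearts 2 and 4 high. Ucp3, another fasting-responsive mitochondrial gene, had 27.7, 67.6, 35.1, 52.7 and 37.1 CPM, and hearts 2 and 4 were again the highest.

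Heart 4 was set apart by immediate early genes, which cells switch on within minutes of a stimulus. Egr3 had 1.19, 1.53, 1.37, 11.1 and 1.22 CPM, Egr2 1.502, 0.358, 0.610, 9.92 and 1.17 CPM and Egr1 72.2, 21.6, 49.6, 191 and 41.7 CPM. In each, heart 4 lay far above the other 4. Fos had 5.82, 4.24, 9.81, 19.8 and 5.37 CPM, Junb 17.4, 16.97, 20.3, 44.99 and 22.2 CPM, Nr4a1 21.5, 16.2, 13.2, 46.8 and 11.01 CPM and Btg2 36.3, 33.3, 34.3, 67.4 and 31.1 CPM, all highest in heart 4. Heart 4 was highest in 13 of 25 members under either scaling, against 15.3% of all genes with TMM factors and 19.1% by library totals. Members that did not share the pattern included Jund (76.7, 80.5, 105, 86.2 and 74.9 CPM) and Klf4 (52.2, 52.4, 38.8, 45.2 and 49.9 CPM). Heart 4 was also highest in Thbs1 (20.7, 11.1, 5.84, 46.3 and 15.8 CPM), a matrix protein, in Errfi1 (49.8, 22.999, 17.3, 89.9 and 16.8 CPM), a feedback inhibitor of the EGF receptor, and in the matrix genes Comp (3.88, 3.83, 1.73, 8.77 and 2.29 CPM) and Fmod (0.438, 0.562, 0.457, 2.87 and 1.01 CPM). Acta1 was highest in heart 4 as well.

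Egr2 is shown with the bases before its start, on the plus strand at chr10:67537416-67537565 of GRCm38.p6 (RefSeq), as an immediate early gene with a CArG match, which is in capitals and begins at position -72.
Egr2: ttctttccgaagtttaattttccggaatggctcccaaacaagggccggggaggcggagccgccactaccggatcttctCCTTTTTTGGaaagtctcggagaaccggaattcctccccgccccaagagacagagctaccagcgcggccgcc
Such a match was found in 2 of 19 immediate early genes with a promoter sequence, Egr2 and Zfp36, and in 439 of 27025 genes in all (1.62%). Only the 250 bases before the start were searched, so a gene without a match can hold the element further away. Zfp36, an mRNA decay factor, had 40.8, 30.6, 31.2, 55.6 and 25.5 CPM.

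Heart 1 was low in genes known to respond to load on heart muscle. Nppa, the atrial natriuretic peptide, had 20.8, 247, 98.4, 115 and 242 CPM, lowest in heart 1, and its relative Nppb had 80.5, 126, 133, 101 and 119 CPM. Ankrd1, a stretch-responsive titin-bound protein, had 502, 1138, 947, 1031 and 1252 CPM, and Xirp2, an actin-binding protein of the intercalated disc, 351, 646, 458, 685 and 880.4 CPM. Both were lowest in heart 1, as was Acta1. These genes differ in length, from Nppa at 0.865 kb of exon to Xirp2 at 11.98 kb. Of the 20 genes of the natriuretic peptide and stress list, heart 1 was lowest in 10, or 12 by library totals, against 27.9% and 41.6% of all genes. Myh7 and Nppa were highest in heart 2, and Acta1 in heart 4.

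Heart 1 was high in haemoglobin and in several regulated genes. Hbb-bs had 82.3, 19.1, 51.3, 41.9 and 37.1 CPM and Hba-a1 22.4, 4.75, 15.2, 13.4 and 10.4 CPM, with heart 1 the highest and heart 2 the lowest in both; haemoglobin genes have near-identical copies, and blood left in the tissue was not measured otherwise. Depp1, a FOXO target, had 112, 37.9, 40.1, 40.2 and 25.1 CPM, Ddit4, an inhibitor of mTOR, 71.2, 25.2, 25.4, 41.5 and 27.3 CPM, and the long non-coding Snhg11 14.6, 0.920, 3.56, 3.55 and 2.82 CPM. Heart 1 lay above the other 4 in these 3. Retnla, a product of alternatively activated macrophages, had 7.64, 1.38, 2.897, 1.62 and 1.91 CPM. Capn11, a calpain, had 7.39, 2.71, 0, 0 and 0.0532 CPM, with counts of 118, 53, 0, 0 and 1, and had the largest CV, 158%, among genes with a named symbol.

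Heart 3 was high in Cyp26b1, which degrades retinoic acid, with 48.5, 18.5, 135, 11.4 and 10.6 CPM. Heart 1 was next, and the other 3 were far lower. Heart 5 was high in Postn, the matrix protein periostin of activated fibroblasts, with 35.05, 36.1, 34.8, 34.7 and 77.2 CPM. The other 4 hearts were within 2 CPM of each other. Col1a1 (58.8, 83.4, 74.3, 59.2 and 84.4 CPM) and Col3a1 (125, 166, 158, 120.5 and 176 CPM) were also highest in heart 5, but heart 2 lay close to it in both. The fibroblast markers as a list did not follow, since heart 5 was lowest in 7 of 14 under either scaling and in their summed level (2753, 2289, 2731, 2702 and 1987 CPM). Gcnt1, a glycosyltransferase, had 3.82, 5.93, 3.35, 3.65 and 16.1 CPM, and the interferon-induced protease Usp18 had 6.63, 6.44, 5.79, 6.42 and 13.9 CPM, both highest in heart 5. Heart 5 was lowest in the chemokine Cxcl14 (47.003, 45.8, 41.8, 39.9 and 9.52 CPM) and in the enkephalin precursor Penk (18.1, 12.9, 13.7, 11.7 and 3.35 CPM).

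A few genes were nearly absent from some hearts and clearly present in others. Slc15a2, a peptide transporter, had 39.6, 19.7, 0.813, 18.1 and 0.638 CPM, in 3 levels, with hearts 3 and 5 near 0 and heart 1 about as high as hearts 2 and 4 together. Igsf23, of the immunoglobulin superfamily, had 0.939, 11.3, 8.69, 8.402 and 11.3 CPM and was low in heart 1 alone. Nt5c1a, a cytosolic 5'-nucleotidase of heart, had 0.751, 9.097, 1.63, 7.98 and 11.3 CPM, low in hearts 1 and 3. Pacsin1, a membrane-shaping protein, had 0.250, 2.04, 0.508, 0.887 and 4.95 CPM, and was highest in heart 5.

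**Figure D5:**
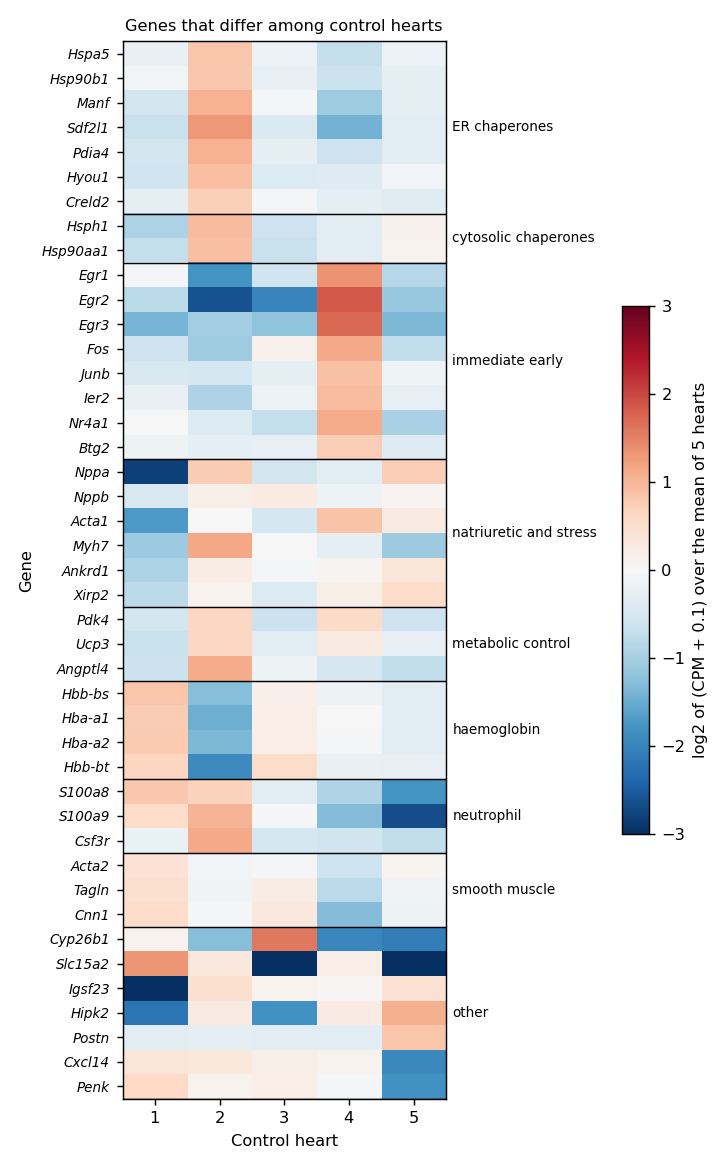
Levels of genes named for their differences among hearts, as the log2 ratio of each control heart to the mean of the 5 hearts (columns 1 to 5, genes in rows by group). Heart 2 is high in chaperone genes, heart 4 in immediate early genes, heart 1 in haemoglobin genes, and heart 5 in Postn.

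Clock genes varied in part. Dbp, an output factor of the clock, had 80.9, 45.4, 116, 42.9 and 56.8 CPM, and the clock repressor Per1 had 76.7, 31.2, 34.7, 64.97 and 40.3 CPM. The activator Arntl had 11.2, 18.5, 11.5, 20.6 and 12.2 CPM, highest in hearts 2 and 4, where Dbp was lowest. Nr1d1, which represses Arntl, had 76.7, 81.1, 119, 77.6 and 106 CPM. Usp2, a deubiquitinase with a daily rhythm, was even at 86.996, 98.4, 90.7, 93.2 and 95.8 CPM.

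Glucocorticoid-responsive genes also spread, with a median CV of 31.9% against 13.6% over all genes. Zbtb16, a strongly induced target of the glucocorticoid receptor, had 50.3, 107, 26.7, 39.3 and 102 CPM, Fkbp5 31.2, 33.1, 18.5, 23.5 and 27.1 CPM and Tsc22d3 119.7, 68.1, 70.99, 89.7 and 72.4 CPM. Klf15, another target, was among the even genes at 75.3, 69.1, 69.8, 73.5 and 70.05 CPM, so the members did not share 1 order of hearts. Interferon-induced genes had a median CV of 19.8%. Heart 2 was lowest in 18 of 27 of them, or 16 by library totals, against 20.05% and 11.5% of all genes. Iigp1, an interferon-induced GTPase, had 78.8, 51.8, 64.2, 72.5 and 94.4 CPM.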

How the data were processed

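The hearts of 5 control mice out of 10 samples were analysed. TRIzol and RNeasy kits gave the total RNA and a stranded mRNA kit from Illumina the libraries, per the labels' protocols. The deposited values are whole read counts for each Ensembl gene, which the authors placed in a single table. The submitters' processing notes name STAR 2.7.8a, featureCounts 2.0.1 and GRCm39. Neither the annotation release nor the strand setting, the handling of multi-mapping reads or the selection of genes is given in the sources used here.

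From the counts, CPM were computed with TMM factors of the 5 libraries (edgeR 4.0.16, R 4.3.3), and shares as percent of all counts of a library. Symbols and merged exon lengths came from GENCODE M21, an older build, and the only coordinates given are those of the RefSeq promoters, on that table's build. Of 15341 genes 15323 had a length, 20 had no symbol and 476 had a count of 0 in all 5 hearts. Promoters came from RefSeq. The CV is SD over mean of CPM, for genes averaging 1 CPM or more. The script was tested on simulated data. Groups were not compared, so no p-values are given. The labels list each heart as its own sample.

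The members and gene lists were chosen with earlier results of these data known. Genes were named by rule: mitochondrially encoded genes, the 20 nuclear genes highest by CPM and per kb, the 25 largest and 10 smallest CVs, up to 6 most abundant and 2 most variable members of each list, members of the pairs, Y-linked genes, Sphk1, Sphk2, and the genes standing out most in each heart. Not every gene it picks is described, some genes are not reported here, and the others named were picked with their values in view. Alternatives were other scaling factors, library totals, other minimum levels and folds, denominators without mitochondrially encoded genes, longest transcript lengths and leaving out each heart.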

Additional observations from a re-analysis of the deposited data

Results flagged for a closer look

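A value was singled out where the gap between the highest or lowest heart and the next exceeded 0.71 of the range over the 5 hearts (Dixon's critical value). Chance gives this in about 1 in 20 groups, and among all 12165 genes 601 (4.94%) met it, so the number of such genes is no result, and most genes below were named because a heart stood apart.

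Heart 2 stood apart above the others in Hspa5 (1164 CPM), Hsp90b1 (752 CPM), Canx (408 CPM), Hyou1 (113 CPM), Pdia4 (88.5 CPM), Dnajc3 (79.7 CPM), Creld2 (27.3 CPM) and Sdf2l1 (20.3 CPM), all folding genes of the endoplasmic reticulum, and in the summed level of the 24 genes of that list (4535 CPM). In Canx and Dnajc3 the step was small, at 1.19-fold and 1.203-fold over the next heart. Heart 2 was also apart in the summed cytosolic heat shock genes (3224 CPM), the summed fasting and PPAR genes (1923 CPM), Serpina3n (56.6 CPM), Angptl4 (16.4 CPM) and Csf3r (8.84 CPM). Like the endoplasmic reticulum list, the list of 15 cytosolic heat shock genes was drawn up after the values were seen. Heart 2 was highest in 9 of them, or 11 by library totals, against 18.3% and 28.2% of all genes.

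Heart 4 was apart above in Btg2 (67.4 CPM), Junb (45.0 CPM), Egr3 (11.1 CPM), Egr2 (9.92 CPM), Fmod (2.87 CPM) and the summed monocyte markers (133 CPM), a list that holds the immediate early gene Nr4a1. Of the 4 monocyte markers that reached 1 CPM, heart 4 was highest in Nr4a1 alone. Heart 4 was apart below in Fhl2 (1251 CPM).

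Heart 1 was apart above in mt-Nd2 (46891 CPM), mt-Nd6 (657 CPM), Depp1 (112 CPM), the summed glial markers (70.2 CPM), Cd163 (31.1 CPM), Snhg11 (14.6 CPM) and Retnla (7.64 CPM), and below in Igsf23 (0.939 CPM). Heart 3 was apart above in Ckm (2494 CPM) and Rpl34 (41.9 CPM). Heart 5 was apart above in Postn (77.2 CPM), Gcnt1 (16.1 CPM) and Usp18 (13.9 CPM), and below in Cxcl14 (9.52 CPM).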

How the results depend on the processing

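With mitochondrially encoded genes left out of the denominator, the shares were 9.91% for sarcomere, 5.52% for nuclear oxidative phosphorylation, 3.24% for fatty acid, 2.64% for TCA cycle, 1.53% for glycolysis and 1.03% for ribosomal protein genes, and 50% of the counts fell on 528.6 genes on average against 131.4. The count of genes with a CV over 50% (128) was 264 at a minimum of 0.5 CPM and 43 at 5 CPM. Of the 100 largest CVs, 53 and 33 were shared at these minimums and 63 without heart 1, and 71 to 83 without another heart. The 624 genes particular to 1 heart became 129 at a fold of 2 and 239 at a minimum of 5 CPM. With each heart left out, the mitochondrially encoded share was 25.2% to 27.7% and the median CV 12.1% to 13.995%. Library totals moved the share of all genes highest in heart 1 from 23.6% to 13.0045%, of those highest in heart 2 from 18.3% to 28.2% and of those lowest in heart 2 from 20.05% to 11.5%. Other scaling factors moved no count of genes by spread by over 1.5 times and no named gene's mean by over its SD. Depth limits genes near 1 CPM, where 1 count is 0.0508 to 0.0626 CPM. No paired analysis was possible because only 1 group was used and no groups were compared.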
